A study of Mus musculus with 8 samples.

Results

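The genes described here are the nuclear genes of the mitochondrial respiratory chain and ATP synthase. They are the 102 of 21887 protein-coding mouse genes whose symbol begins with Nduf, Sdha, Sdhb, Sdhc, Sdhd, Uqcr, Cox4, Cox5, Cox6, Cox7, Cox8 or Atp5, or is Cyc1 or Cycs. By symbol, 41 belong to complex I, 4 to complex II, 9 to complex III, 18 to complex IV and 17 to ATP synthase, Cycs encodes cytochrome c, and 8 Ndufaf and 4 Sdhaf genes encode assembly factors of complexes I and II. Ndufa4, whose protein is known as a subunit of complex IV, was kept with complex I because the grouping follows the symbol. A histone mark was counted for a gene when an interval of the deposited lists overlapped the gene span or the 1 kb on either side of it.

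Histone marks were profiled by chromatin immunoprecipitation sequencing in cultured mouse neuronal stem cells that lack p16Ink4a and p14Arf, 2 products of the Cdkn2a locus. The cells had been stably transduced with wild-type histone H3.3 or with H3.3K27M, in which methionine takes the place of lysine 27, so both genotypes carry a transduced H3.3 and both lack the 2 cell cycle inhibitors. H3K4me3, a mark of promoters, H3K27ac, found at active promoters and enhancers, and H3K27me3, the mark of Polycomb repression, were each measured in 1 wild-type and 1 K27M library, and the 2 input libraries of the 8 samples were not used here. No difference below therefore has a replicate check, no p-value is given, and the sources used here do not say whether the cells are 1 clone or a pool.

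The respiratory chain passes electrons from NADH, through complex I, or from succinate, through complex II, to complex III, cytochrome c and complex IV, where oxygen is reduced. Complexes I, III and IV pump protons across the inner mitochondrial membrane, and ATP synthase uses that gradient to make ATP. Most subunits are encoded in the nucleus by widely expressed genes, while several subunits of complex IV exist as isoforms that are known mainly from muscle, lung, testis or low oxygen. Neural stem cells are known to rely strongly on glycolysis and to increase respiration as they differentiate.

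The 6 lists held between 5877 (H3K27me3, K27M) and 39018 (H3K27ac, wild type) intervals. For each the authors gave the mean and the peak of the tag density, in tags per bin of about 32 nt. The number of tags behind each list is not known. Density is a value per length, so genes can be compared on it, but a density of 1 library can be compared with that of another only at the deposited scale. Over all protein-coding genes with an interval in both libraries the log2 ratio (K27M over wild type) had a median of 0.37 for H3K4me3, 0.03 for H3K27ac and -1.21 for H3K27me3, and the values of the respiratory genes are read against these medians. Of 10 neural stem and progenitor marker genes, 9 carried H3K4me3 and H3K27ac in both genotypes. None of 5 muscle markers carried either mark, while H3K4me3 was at 2 of 4 endothelial and 1 of 5 microglial markers in both genotypes and at 0 of 3 astrocyte markers. H3K27ac was at 2 endothelial, 2 microglial and 1 astrocyte marker in the wild-type library and at 1, 0 and 0 in the K27M library, and the part of other cell types in the results was not tested. All 5 mature neuron markers carried H3K4me3, and 2 of them carried H3K27ac in the wild-type library and 1 in the K27M library.

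H3K4me3 was present at most respiratory genes in both genotypes. Of the 102 genes, 87 (85.3%, exact 95% binomial interval for counting error only 76.9 to 91.5) had an interval in both libraries, against 56.5% of all protein-coding genes. All 4 genes of complex II, all 9 of complex III and all 12 assembly factor genes had it in both, as did 35 of 41 genes of complex I, 12 of 18 of complex IV and 15 of 17 of ATP synthase. Among the 92 genes that remain without the tissue-restricted isoforms and the Ndufb4 copies, 85 (92.4%) had it in both. Only Ndufb5 and Cox7a1 had an interval in the wild-type library alone, and Atp5g2, Cox6a2, Ndufa6 and Ndufs7 in the K27M library alone. In the wild-type library 2 of 89 marked genes had no K27M interval, or 2.25%, against 1.69% of all marked genes.

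The density of H3K4me3 differed several-fold between the respiratory genes and kept much the same order in the K27M library. In wild-type cells the mean density ran from 28.8 at Cox6b2, a testis isoform, to 128 at Cox6c, a structural subunit of complex IV, with a median of 84.7. In K27M cells it ran from 33.5 at Cox6b2 to 178 at Uqcrc1, a core subunit of complex III, with a median of 105. Across the 87 genes Pearson's r between the libraries was 0.91 and Spearman's rho 0.86, a description of points that share both libraries and the same regions. The called length was close to equal, with medians of 2909 bp and 3020 bp, and it was shorter in K27M cells at 34 of the 87 genes, against 38.9% of all genes. Across the 87 genes the log2 density ratio had an r of -0.54 with the log2 length ratio, values that share terms of the same intervals.

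**Figure D1:**
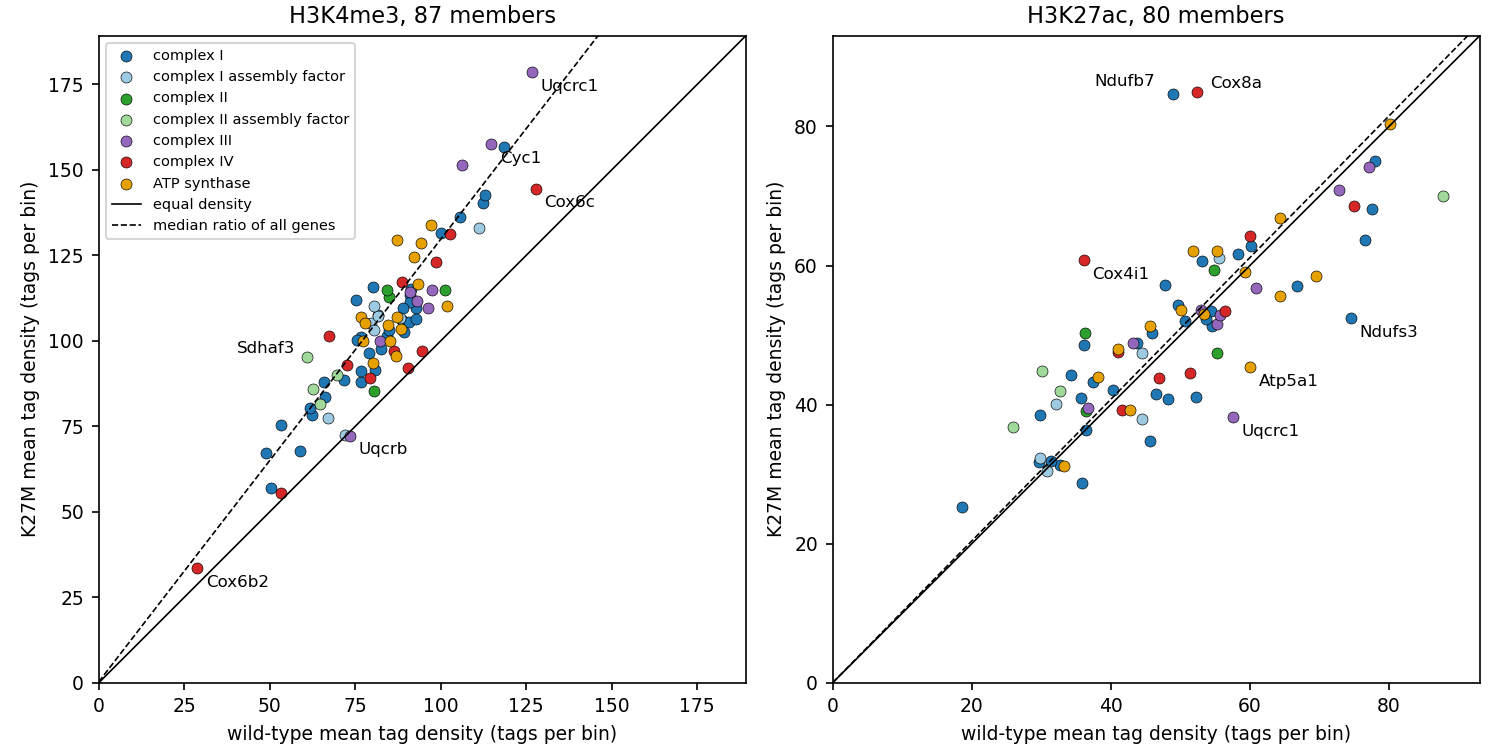
Mean tag density (tags per bin) of the densest shared region of each respiratory gene in wild-type cells (x axis) and K27M cells (y axis), for H3K4me3 (left, 87 genes) and H3K27ac (right, 80 genes), 1 point per gene, coloured by complex. The solid line marks equal density and the dashed line the median ratio of all genes, and most H3K4me3 points lie between these lines or close to the dashed one, with Uqcrb below the solid line, while the H3K27ac points scatter on both sides, with Ndufb7, Cox8a and Cox4i1 highest above.

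At the deposited scale 86 of the 87 genes had more H3K4me3 in K27M cells and 1, Uqcrb, had less in its densest region, but the shift was no larger than that of the genome. Among all genes with a shared region, 11969 of 12337 had more in K27M cells. Over the 87 genes the log2 ratio had a median of 0.32 (quartiles 0.22 and 0.40), below the median of 0.37 of all genes, and 29 of the 87 lay above that median. A rise of at least 1.5-fold was seen at 1 respiratory gene, Sdhaf3, against 11.3% of all genes, and no respiratory gene fell by 1.5-fold (0.13% of all genes). Set against the median of all genes, no respiratory gene moved by 1.5-fold in either direction, where 0.948% of all genes rose and 0.802% fell. The direction depends on the scale: with the median ratio of all shared regions set to 0 the members' median was -0.037, and with both lists scaled to equal sums it was -0.091.

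The 3 genes with the highest H3K4me3 ratio were Sdhaf3, Cox7a2 and Ndufv2. Sdhaf3, an assembly factor of complex II, had a density of 61.0 in wild-type and 95.1 in K27M cells, a log2 ratio of 0.63. Cox7a2, the widely expressed isoform of a small subunit of complex IV, went from 67.4 to 101, a log2 ratio of 0.58. It reached 0.74 when only the interval within 500 bp of its listed start was used. The called length there was shorter in K27M cells, 2227 bp against 3036 bp in wild-type cells. Ndufv2, an iron-sulfur subunit of the NADH-oxidizing arm of complex I, reached 0.57 in a region that lies beyond its 3′ end, and at its own start the density was 68.9 in wild-type and 89.5 in K27M cells, a log2 ratio of 0.37, close to the median of all genes.

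At the other end stood Uqcrb, Ndufaf1 and Cox7a2l. Uqcrb, a subunit of complex III, had 73.4 in wild-type and 72.3 in K27M cells, a log2 ratio of -0.02. Ndufaf1, an assembly factor of complex I, had 72.0 and 72.6, a log2 ratio of 0.01, and Cox7a2l, known for joining complexes III and IV into supercomplexes, had 90.4 and 92.2, a log2 ratio of 0.03. Relative to the all-gene median these 3 therefore lay lower in K27M cells, by less than 1.5-fold.

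The catalytic core genes lay within this narrow range. Ndufs1, the largest subunit of complex I, had 106 in wild-type and 136 in K27M cells. Sdha, the flavoprotein that oxidizes succinate, had 84.8 and 113. Cyc1, the cytochrome of complex III that hands electrons to cytochrome c, had 115 and 158. Each of these 3 had a log2 ratio between 0.36 and 0.45. For the catalytic beta subunit of ATP synthase, Atp5b, the densities were 102 and 110, and for the alpha subunit, Atp5a1, 86.9 and 95.5, so that both rose by less than the median gene. Cox4i1, the regulatory subunit 4 isoform of complex IV found in most tissues, had 94.4 and 97.0, a log2 ratio of 0.04.

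By complex the median log2 ratio of H3K4me3 was 0.31 for complex I, 0.29 for complex II, 0.28 for complex III, 0.19 for complex IV and 0.32 for ATP synthase. The assembly factors had 0.32 for complex I and 0.40 for complex II, the latter from 4 genes. Complex IV had the lowest median, with 2 of its 12 genes above the all-gene median, against 11 of 35 for complex I and 6 of 15 for ATP synthase. The ranges of the complexes overlap, and whether they differ was not tested. The highest density within a region was higher in K27M cells at 87 of 87 genes, against 97.2% of all genes.

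**Figure D2:**
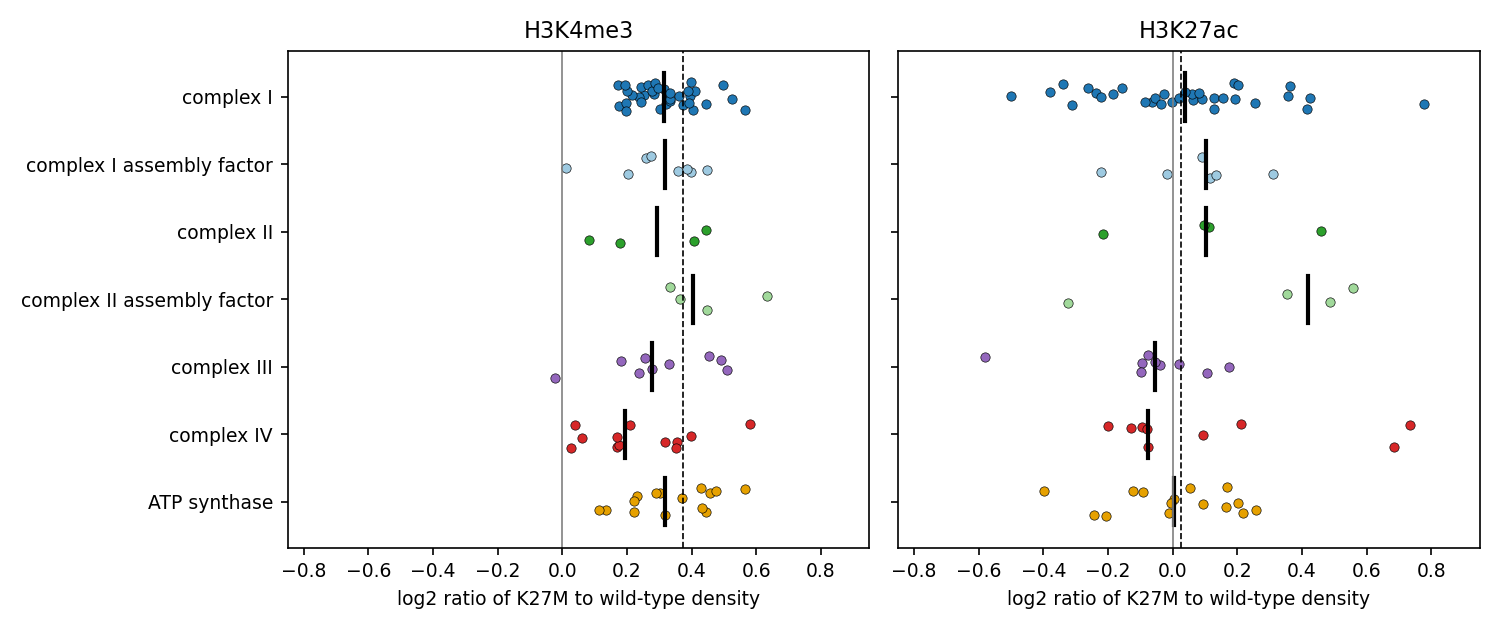
Log2 ratio of mean tag density, K27M over wild type (x axis), for each respiratory gene with a shared region, by complex (y axis, points spread vertically for legibility), for H3K4me3 (left) and H3K27ac (right). Thick bars are medians per complex, the grey line is 0 and the dashed line the median of all genes, 0.37 and 0.03; the H3K4me3 points lie to the right of 0 with the exception of Uqcrb, and the complex IV median, 0.19, is the lowest.

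Widely expressed respiratory genes with no H3K4me3 interval at the start site were few. Cycs, the gene for somatic cytochrome c, had no interval of any mark in either genotype, and the nearest H3K4me3 interval lay 29.9 kb from its start in wild-type and 29.7 kb in K27M cells. Ndufs8, an iron-sulfur core subunit of complex I, likewise had none, with the nearest 16.6 kb away in both. Atp5pb, the peripheral stalk subunit b of ATP synthase, had none within its window, and the nearest were short and weak, 2.19 kb away with a density of 20.5 in wild-type and 2.10 kb away with 23.0 in K27M cells. The intervals of each list are numbered without a break, so no rows are missing between those deposited, but the signal itself was not analysed here, and whether these genes lack the mark or only a called interval was not tested.

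The remaining gaps held small intervals, inside the gene at 3 genes and upstream of the start at Atp5g2. Ndufb5, an accessory subunit of complex I, had a wild-type interval of 234 bp and density 17.8, 2.06 kb into the gene. Ndufa6, another accessory subunit, had a K27M interval of 331 bp and density 40.4, 1.82 kb into the gene, and Ndufs7, an iron-sulfur core subunit, a K27M interval of 291 bp and density 19.3, 3.28 kb into it. Atp5g2, a gene for the membrane ring subunit c, had a K27M interval of 522 bp and density 32.4, 0.466 kb upstream of its start. These lengths are well under the median of 3020 bp. The other genes for subunit c, Atp5g1 (97.3 in wild-type and 134 in K27M cells) and Atp5g3 (84.7 and 105), were marked in both.

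The promoters of Cycs and Ndufs8 are shown because both genes are widely expressed yet had no H3K4me3 interval. Each sequence runs from 250 bases before to 50 after the RefSeq start, 5′ to 3′ on the gene's strand, in GRCm38.p6, the assembly known as mm10. Capitals mark GGGCGG, the core of SP-type GC boxes, in Cycs, and CTTCCGG, the reverse complement of the ETS motif CCGGAAG, in Ndufs8.
Cycs (chr6:50566520-50566819, minus strand): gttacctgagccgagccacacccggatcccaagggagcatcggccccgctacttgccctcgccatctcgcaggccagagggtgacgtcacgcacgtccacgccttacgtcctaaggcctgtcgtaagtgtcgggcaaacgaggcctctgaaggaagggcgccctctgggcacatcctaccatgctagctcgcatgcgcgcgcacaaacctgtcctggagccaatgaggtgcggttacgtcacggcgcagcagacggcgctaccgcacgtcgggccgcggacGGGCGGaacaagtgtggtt
Ndufs8 (chr19:3912725-3913024, minus strand): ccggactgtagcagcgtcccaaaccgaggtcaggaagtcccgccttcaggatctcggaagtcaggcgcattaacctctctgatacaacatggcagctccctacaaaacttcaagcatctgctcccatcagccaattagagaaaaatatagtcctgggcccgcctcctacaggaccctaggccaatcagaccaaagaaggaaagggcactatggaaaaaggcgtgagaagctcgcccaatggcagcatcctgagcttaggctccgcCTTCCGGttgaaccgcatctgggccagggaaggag
The Cycs promoter has 32 CpG dinucleotides and 65% G and C, and that of Ndufs8 12 and 55%, against medians of 20 CpG and 58.7% over the 83 respiratory promoters and 13 and 56.3% over all 17492 listed promoters. Cycs lies above these medians and Ndufs8 below them.

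The share of marked genes was similar when counted by start site, a count chosen after seeing the data. RefSeq lists a start for 83 of the 102 genes, and 71 of these (85.5%) had an H3K4me3 interval of both libraries within 500 bp of it, against 53% of all genes with a listed start. In the region at the start 3 genes rose by at least 1.5-fold, against 12.9% of all genes, namely Cox7a2 (0.74), Sdhaf3 (0.63) and Atp5j (0.61), in place of Sdhaf3 alone. Ndufa11 (-0.09) and Ndufaf2 (-0.02) lay below 0 there, and Uqcrb has no listed start. The highest point of H3K4me3 lay downstream of the start at 59 of the 71 genes in each library, at a median of 223 bp in wild-type and 213 bp in K27M cells. Between the genotypes it moved by a median of 0 bp and by at most 100 bp at 58 of the 71. The position of the highest point was not computed over all genes. By wild-type length the longest called H3K4me3 belonged to Atp5b, 8548 bp in wild-type and 8813 bp in K27M cells, then to Ndufb6 with 6941 bp and 6921 bp and to Ndufb10, an accessory subunit of complex I, with 6605 bp and 6525 bp. In K27M cells Atp5d, the delta subunit of ATP synthase, came second with 7111 bp, against 6364 bp in wild-type cells. For Ndufb6, also an accessory subunit of complex I, the sum includes a region beyond the 3′ end of the gene, and the Ndufb10 interval also runs past its 3′ end.

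H3K27ac was also present at most respiratory genes. Of the 102 genes, 80 (78.4%, exact binomial interval 69.2 to 86.0) had an interval in both libraries, against 44.4% of all protein-coding genes. Complex II, complex III and the complex II assembly factors had it in both at every gene, and complex IV at 9 of 18. Of the 90 genes with H3K27ac in wild-type cells, 10 (11.1%) had no interval in K27M cells, against 15.8% of all such genes. A K27M interval without a wild-type one was found at 1 gene, Cox6a2, against 0.672% of all genes. At the listed starts 65 of 83 genes (78.3%) had H3K27ac of both libraries, against 40.1%.

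The mean density of H3K27ac was centred on equality at the deposited scale. The median log2 ratio over the 80 genes was 0.03 (quartiles -0.10 and 0.18), the same to 2 decimals as the median of all genes, with 43 genes above 0 and 37 below. Among all 9615 genes with a shared region, 5102 lay above 0 and 4511 below. In wild-type cells the density ran from 18.6 at Ndufa1, an accessory subunit of complex I, to 87.8 at Sdhaf2, which helps to attach the flavin to Sdha. In K27M cells it ran from 25.3 at Ndufa1 to 84.9 at Cox8a. This direction depends on the scale chosen: the median was -0.54 with equal 5th percentiles of the 2 lists and 1.13 with both lists scaled to equal sums.

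A rise of at least 1.5-fold in mean H3K27ac density was found at 3 respiratory genes (3.9% of all genes with a shared region) and a fall of that size at none (1.9%). Relative to the median of all genes 3 rose (3.32%) and 1, Uqcrc1, fell (2.57%). Ndufb7, an accessory subunit of complex I, went from 49.0 in wild-type to 84.7 in K27M cells, a log2 ratio of 0.78. Cox4i1 went from 36.2 to 60.8, a log2 ratio of 0.73, and Cox8a, the widely expressed isoform of the smallest subunit of complex IV, from 52.5 to 84.9, a log2 ratio of 0.68. In all 3 the called interval was shorter in K27M cells, 291 bp against 741 bp at Ndufb7, 661 bp against 1272 bp at Cox4i1 and 686 bp against 2119 bp at Cox8a. When density was multiplied by length over all intervals the ratios turned negative, to -0.56, -0.66 and -1.02, and by highest density that of Cox8a was -0.29. Just inside the threshold stood Cox8a and just outside it Sdhaf4, an assembly factor of complex II, with 30.1 and 44.8, a log2 ratio of 0.56 that was -0.34 by density times length.

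The lowest H3K27ac ratios belonged to Uqcrc1, Ndufs3 and Atp5a1. Uqcrc1 had 57.6 in wild-type and 38.2 in K27M cells, a log2 ratio of -0.58, just outside the threshold at the deposited scale. Ndufs3, a core subunit of complex I, had 74.5 and 52.4, a log2 ratio of -0.50, and Atp5a1 had 60.1 and 45.4, a log2 ratio of -0.40. At Uqcrc1 the H3K4me3 density went the other way, from 127 to 178 with a log2 ratio of 0.49, so the marks did not move together there. Over the 80 genes with both values the 2 log2 ratios had a Pearson's r of -0.01 and a Spearman's rho of 0.02, whereas the wild-type densities of the marks had an r of 0.52, points that share the same cells and base composition.

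The promoters of Ndufb7, Cox8a and Uqcrc1 are printed because their H3K27ac density ratios were among the most extreme. Capitals mark the ETS motif CCGGAAG or its reverse complement CTTCCGG. In Ndufb7 they also mark TTTATA, the reverse complement of TATAAA. In Uqcrc1 they mark an NRF1 motif, GCGCA followed by any base and GCGC, on either strand.
Ndufb7 (chr8:83566508-83566807, plus strand): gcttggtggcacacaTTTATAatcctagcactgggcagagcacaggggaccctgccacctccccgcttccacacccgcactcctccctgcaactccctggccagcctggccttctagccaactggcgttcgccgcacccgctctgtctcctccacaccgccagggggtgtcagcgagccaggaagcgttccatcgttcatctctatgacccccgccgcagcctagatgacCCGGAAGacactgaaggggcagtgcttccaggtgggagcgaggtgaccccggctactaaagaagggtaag
Cox8a (chr19:7217567-7217866, minus strand): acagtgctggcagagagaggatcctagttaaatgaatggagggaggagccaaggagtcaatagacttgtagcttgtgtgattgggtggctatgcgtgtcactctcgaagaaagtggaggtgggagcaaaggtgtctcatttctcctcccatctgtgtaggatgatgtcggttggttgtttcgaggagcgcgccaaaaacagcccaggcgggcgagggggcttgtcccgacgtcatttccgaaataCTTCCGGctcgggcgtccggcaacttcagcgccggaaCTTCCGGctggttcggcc
Uqcrc1 (chr9:108936398-108936697, plus strand): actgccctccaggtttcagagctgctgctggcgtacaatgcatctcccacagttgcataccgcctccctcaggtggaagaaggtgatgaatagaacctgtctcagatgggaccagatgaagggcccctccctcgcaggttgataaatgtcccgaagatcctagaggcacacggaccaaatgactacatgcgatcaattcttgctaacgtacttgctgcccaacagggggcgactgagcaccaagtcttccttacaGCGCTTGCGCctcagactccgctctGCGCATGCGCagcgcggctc
Cox8a holds the ETS letters at 2 places and Uqcrc1 the NRF1 letters at 2 places. A match describes the letters and is not a binding site.

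The clearest difference in H3K27ac was its called length. The K27M interval was shorter at 74 of the 80 genes, against 87.5% of all genes, with a median of 807 bp against 1236 bp in the wild type and a median length ratio of 0.693, where all genes had 0.711. It was at most 50% of the wild-type length at 18 genes, or 22.5%, close to the 21.8% of all genes. Uqcr11, a small subunit of complex III, went from 2429 bp to 293 bp, and Sdhaf1, an assembly factor of complex II, from 1536 bp to 299 bp. The 6 genes with an interval as long or longer in K27M cells were Atp5a1, Sdhc, Sdhaf2, Uqcrc1, Atp5e and Cox6c. The highest density fell at 65 genes and rose at 15, against 75.9% and 22.4% of all genes, so that by highest density the median log2 ratio was -0.31 in place of 0.03.

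**Figure D3:**
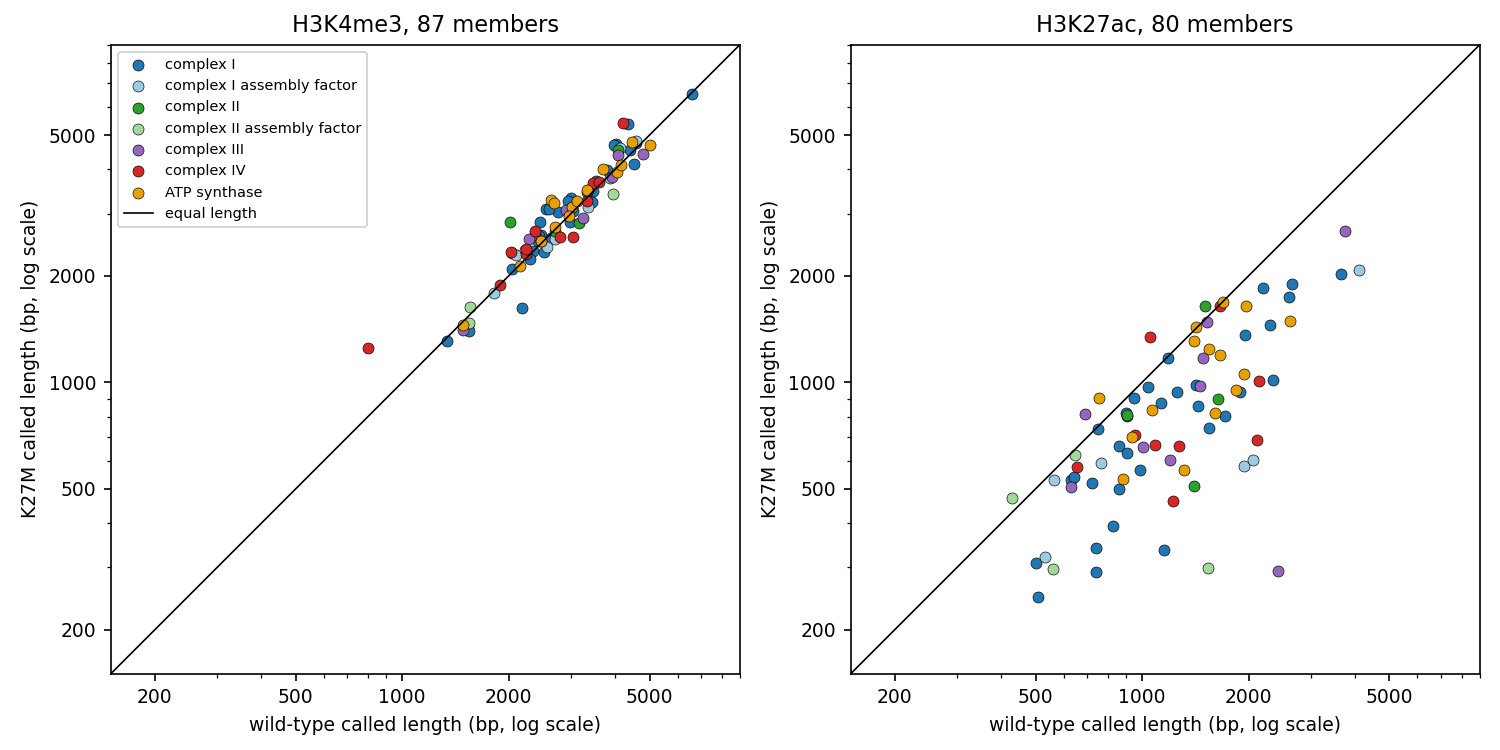
Called length in bp of the densest shared region in wild-type (x axis) and K27M cells (y axis), both on log scales, for H3K4me3 (left, 87 genes) and H3K27ac (right, 80 genes), 1 point per gene coloured by complex, with the line of equal length. The H3K4me3 points follow the line, while 74 of the 80 H3K27ac points lie below it.

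By the medians, the called interval receded more upstream of the start than downstream. At the 65 genes with H3K27ac of both libraries at a listed start, the wild-type interval ran from a median of -461 bp to a median of 821 bp (negative values are upstream), and the K27M interval from -9 bp to 596 bp. The highest point lay 194 bp downstream in wild-type and 208 bp in K27M cells, and it moved by at most 100 bp at 54 genes. Edges and highest points were not computed over all genes, so whether this pattern is particular to respiratory genes was not tested. The called length depends on where the list ends as well as on the mark: the 5th percentile of density was 17.0 tags per bin in the wild-type list and 25.5 in the K27M list, and its part in the shorter intervals was not tested. Across the 80 genes the density ratio had an r of -0.47 with the log2 length ratio and of -0.51 with the wild-type density, values that share the terms of the same intervals.

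The 10 genes with H3K27ac in wild-type cells alone kept H3K4me3 in most cases. Cox7b, a structural subunit of complex IV, had an H3K27ac density of 33.6 over 880 bp in wild-type cells and no K27M interval, while its H3K4me3 was 53.2 in wild-type and 55.5 in K27M cells. Ndufaf7, a methyltransferase that acts on complex I, had an H3K27ac density of 35.4 in wild-type cells and H3K4me3 of 81.7 and 107. Ndufaf2, an assembly factor, had 32.6 in wild-type cells, and Cox6a1, the isoform of subunit 6a found outside muscle, 24.3 over 1144 bp. All 4 of these wild-type densities lay below the median of 49.3 of the shared genes, as did those of Ndufv3 (29.5), Ndufa6 (26.6), Ndufs7 (24.9), Atp5g2 (24.1) and Cox8b (17.9). Ndufb10 had 43.9 in a region beyond its 3′ end and 34.6 at its own start.

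At Ndufa6, Ndufs7 and Atp5g2 the called intervals were split between the genotypes, with H3K27ac in the wild-type library alone and H3K4me3 in the K27M library alone. Their wild-type H3K27ac densities, 26.6, 24.9 and 24.1, lay close to the 5th percentile of the K27M list, 25.5. The part of the list ends in this split was not tested. For Ndufs7 the densest of 4 H3K27ac intervals lies beyond the 3′ end, and none lies within 500 bp of its start. Its K27M H3K4me3 interval lies elsewhere, 3.28 kb into the gene, and its density of 19.3 is close to the 5th percentile of that list, 18.9. The Cox7b promoter is printed because its H3K27ac was called in wild-type cells alone. It has 5 CpG dinucleotides and 43.3% G and C, and it holds none of the motifs searched.
Cox7b (chrX:106015450-106015749, plus strand): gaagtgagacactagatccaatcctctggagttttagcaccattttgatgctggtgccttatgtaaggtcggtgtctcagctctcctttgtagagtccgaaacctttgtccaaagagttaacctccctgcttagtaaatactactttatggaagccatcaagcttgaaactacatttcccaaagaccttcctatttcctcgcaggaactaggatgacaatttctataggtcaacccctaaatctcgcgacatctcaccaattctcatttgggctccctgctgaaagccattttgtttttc

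H3K27me3 was scarce at the respiratory genes. In wild-type cells 17 of 102 genes (16.7%, exact binomial interval 10.02 to 25.3) had an interval in the gene window, against 31.1% of all protein-coding genes. Of the 17, 14 (82.4%) had none within the window in K27M cells, against 69% of all such genes. No respiratory gene had a window interval in K27M cells alone (0.452% of all genes). At a listed start 1 gene, Atp5k, or 1.20%, had it in both, against 5.04%. There 4 genes had it in wild-type cells alone and 1, Cox6b1, in K27M cells alone, counts not made over all genes. The Cox6b1 interval lay 685 bp from the gene in wild-type and 485 bp in K27M cells. The 3 genes (2.94%) with both in the window, against 9.64% of all genes, were Cox6b1, the widely expressed subunit 6b of complex IV, Ndufb8, an accessory subunit of complex I, and Atp5k, the e subunit of ATP synthase. Their 3 mean densities fell by at least 1.5-fold, as did those of 85.3% of all genes with a shared region. These falls were read at the deposited scale alone. The 5th percentile of H3K27me3 density was 3.54 in the wild-type list and 2.02 in the K27M list.

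Cox6b1 went from 16.6 in wild-type to 7.33 in K27M cells, a log2 ratio of -1.08. Ndufb8 went from 14.3 to 4.22, a log2 ratio of -1.55. Atp5k went from 14.3 to 3.05, a log2 ratio of -1.92. The median over all genes was -1.21, so that Cox6b1 lay above it and the other 2 below.

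The mark lay on the gene itself at only 2 of the 17 genes, Cox4i2 and Cox7b2, where 84.9% of all genes with a wild-type interval in the window, and 26.4% of all protein-coding genes, had it on the gene span. Gene length was not matched in this comparison, and its part was not tested. Cox4i2, the isoform of subunit 4 known from lung and low oxygen, had a wild-type interval of density 6.58 with 4.88 kb on the gene. Cox7b2, a testis isoform, had an interval of density 4.79 with 6.80 kb inside the gene, 32606 bp from its start. Neither had an H3K27me3 interval in K27M cells, and neither had H3K4me3 or H3K27ac in any library. Both are isoforms of genes, Cox4i1 and Cox7b, that carried H3K4me3 in both genotypes.

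At the other 15 genes the interval stopped beside the gene. A strand is listed for 12 of these, and in all 12 the interval lay on the side of the start site, at 1 to 779 bp from it, where 82.6% of all 829 such genes had it on that side alone. It did not overlap the wild-type H3K4me3 interval at 8 of the 15 genes, overlapped it by 38 to 626 bp at 6, and Cox6a2 had no wild-type H3K4me3. This overlap was not counted over all genes, so whether it is particular to respiratory genes was not tested. The largest domain, 52999 bp at density 6.58, ended 758 bp before Ndufb7. Another of 52799 bp and density 9.21 ended beside Ndufa10, an accessory subunit of complex I, and covered 3 olfactory receptor genes, Olfr1414, Olfr1415 and Olfr1416. Domains of lower density lay beside Ndufv3 (6.07), Cox5b (5.17), Sdhc (4.93), Ndufv1 (4.64), Uqcrfs1 (4.50), Ndufb6 (4.43) and Cox7c (3.78), and none of these had a K27M interval.

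Some of the domains that bordered respiratory genes remained in part at a distance. On the wild-type domains beside Ndufa3, Ndufa10, Atp5mpl and Ndufb7 a K27M interval was called farther than 1 kb from the gene, with densities of 2.64, 3.73, 2.84 and 2.06 against wild-type densities of 11.6, 9.21, 8.48 and 6.58. On the domain beside Ndufa10 that interval covered 6799 bp of 52799 bp. With the 3 genes that kept an interval in their window, 7 of the 17 wild-type domains thus held a called K27M interval, and 10 held none. The same count was not made over all wild-type domains, so whether it is particular to these was not tested.

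**Figure D4:**
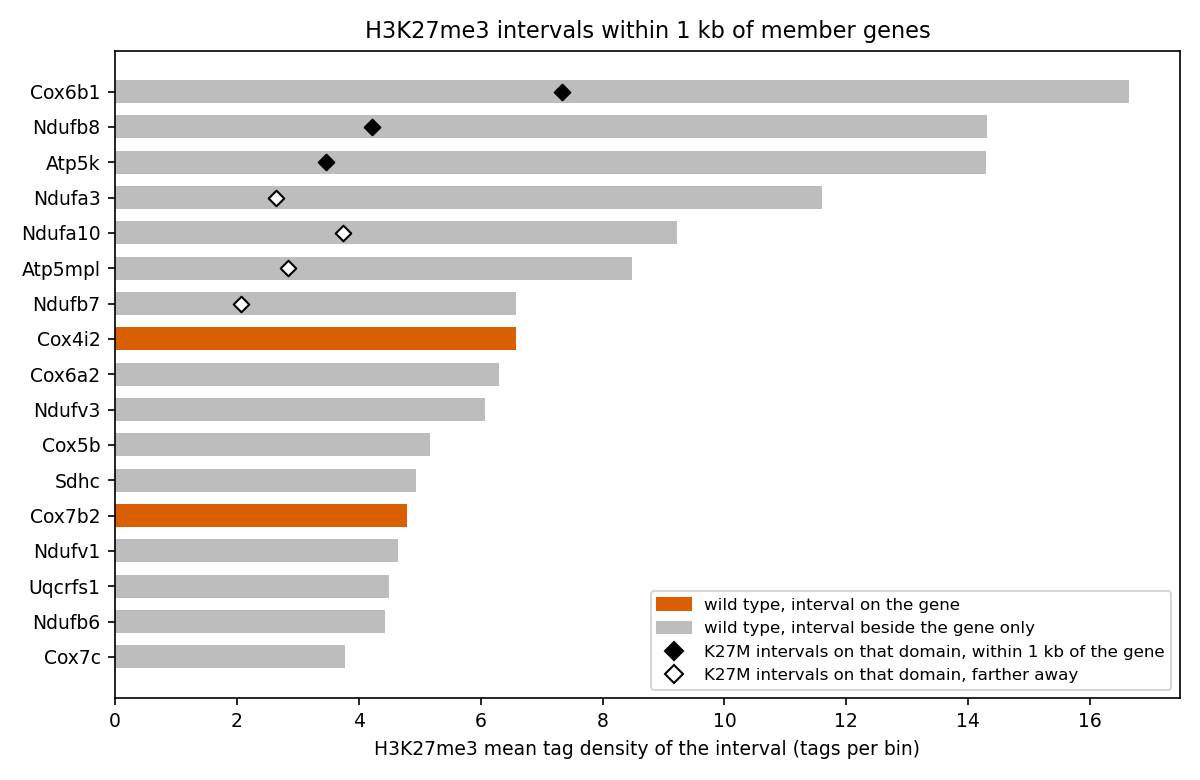
Mean tag density of H3K27me3 (x axis, tags per bin) for the 17 respiratory genes with a wild-type interval within 1 kb (y axis). Bars are the wild-type interval, orange where it lies on the gene (Cox4i2 and Cox7b2) and grey where it lies only beside it; diamonds are the mean over the K27M intervals on the same domain, filled for the 3 genes with a K27M interval within 1 kb and open for the 4 with one farther away, and each diamond lies left of the end of its bar.

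The border at Atp5k was the closest. Its wild-type domain, chr5:108434400-108458999, begins 1 bp from the start of the gene, where interval edges fall on multiples of 200 bp. It spans 24599 bp and covers Mfsd7a, and in K27M cells 3 intervals remained on it with a mean density of 3.47. The domain overlapped the H3K4me3 of Atp5k by 621 bp, and that H3K4me3 was 80.1 in wild-type and 93.5 in K27M cells. H3K27ac at Atp5k was 33.2 and 31.1, a log2 ratio of -0.09. The promoter is printed because the domain begins within it, at the start site. Capitals mark an NRF1 motif and the ETS letters CTTCCGG.
Atp5k (chr5:108434350-108434649, minus strand): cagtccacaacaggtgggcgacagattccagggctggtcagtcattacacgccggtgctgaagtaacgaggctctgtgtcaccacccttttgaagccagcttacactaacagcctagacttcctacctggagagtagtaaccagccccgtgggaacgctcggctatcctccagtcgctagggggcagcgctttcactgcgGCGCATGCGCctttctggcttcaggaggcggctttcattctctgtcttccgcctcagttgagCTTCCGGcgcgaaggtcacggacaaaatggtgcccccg

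Tissue-restricted isoforms differed from their widely expressed relatives. Cox4i2, Cox7b2 and Cox8c, the last a testis isoform, had neither H3K4me3 nor H3K27ac in either genotype. Cox8b, the isoform of heart and skeletal muscle, had H3K27ac of density 17.9 over 326 bp in wild-type cells and no other interval. Cox7a1, also from muscle, had only a wild-type H3K4me3 interval of 210 bp at density 24.3. Cox6b2 had H3K4me3 in both, 28.8 and 33.5, and no H3K27ac.

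Cox6a2, the subunit 6a isoform of striated muscle, was the exception in the other direction. In K27M cells it had H3K4me3 of density 30.6 over 737 bp and H3K27ac of 31.4 over 372 bp, and in wild-type cells neither. An H3K27me3 interval of density 6.30 lay 635 bp below the gene span in wild-type cells and none in K27M cells. The muscle markers Myod1, Tnnt3 and Myh6 carried H3K27me3 in wild-type cells, none of the 5 muscle markers carried it in K27M cells, and none carried H3K4me3 or H3K27ac in either. Ndufa4l2, known as a gene induced by low oxygen, carried both active marks in both genotypes, as most widely expressed genes did. Its H3K4me3 was 49.1 in wild-type and 67.2 in K27M cells, and its H3K27ac 49.6 and 54.3. The wild-type H3K4me3 density lay just below the lowest of the widely expressed genes with a shared region, 50.4.

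The promoters of Cox7b2 and Cox8b are printed for comparison with those of Cox7b and Cox8a. Capitals mark GGGCGG and TATAAA or its reverse complement TTTATA.
Cox7b2 (chr5:71548156-71548455, minus strand): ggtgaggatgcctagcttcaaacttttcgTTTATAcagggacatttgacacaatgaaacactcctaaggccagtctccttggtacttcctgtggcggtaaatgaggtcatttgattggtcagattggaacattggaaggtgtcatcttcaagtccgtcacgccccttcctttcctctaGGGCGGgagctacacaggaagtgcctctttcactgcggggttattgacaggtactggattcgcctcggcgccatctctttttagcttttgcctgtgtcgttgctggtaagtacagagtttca
Cox8b (chr7:140900397-140900696, minus strand): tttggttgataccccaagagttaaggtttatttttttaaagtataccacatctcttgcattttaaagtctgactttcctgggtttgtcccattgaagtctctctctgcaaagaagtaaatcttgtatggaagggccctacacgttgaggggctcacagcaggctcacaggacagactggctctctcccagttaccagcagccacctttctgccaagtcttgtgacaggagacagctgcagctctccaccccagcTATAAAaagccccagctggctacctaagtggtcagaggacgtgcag
Cox8b has 2 CpG dinucleotides and TATAAA in the promoter, against 19 CpG and no TATAAA in Cox8a. Cox7b2 has 10 CpG, more than the 5 of Cox7b, so a low CpG count did not separate marked from unmarked isoforms in that pair. Ndufb4b and Ndufb4c, named as further copies of the complex I gene Ndufb4, had no interval of any mark, while Ndufb4 itself had H3K4me3 of 66.0 in wild-type and 88.0 in K27M cells. How tags that match more than 1 copy were counted was not stated, so the absence at the copies is uncertain.

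The respiratory promoters held some regulatory letters more often than other promoters. The letters GCGCA, any base and GCGC, read on both strands for nuclear respiratory factor 1, were in 24.1% of the 83, against 6.6% of all 17492 promoters and 11.2% of those with H3K4me3 of both libraries at the start. CCGGAAG, read on both strands for the ETS family that includes Gabpa, was in 25.3%, against 11.9% and 19.2%. AAGATGGC, for Yy1, was in 12%, against 3.22% and 4.89%. GGGCGG was in 48.2%, against 46.3% and 68.9%, and TATAAA in 10.8%, against 13.3% and 6.19%. No motif contains another, all were read on both strands, and a match shows letters only.

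Many respiratory genes also start close to a gene on the opposite strand. Of the 83 with a listed start, 25 (30.1%) had a start of another protein-coding gene on the opposite strand within 1 kb, against 9.61% of all genes. These pairs include Atp5j with Gabpa, which encodes a regulator of respiratory genes, Ndufa7 with the ribosomal gene Rps28, Ndufb5 with the mitochondrial ribosomal gene Mrpl47, and Sdhd with Timm8b, a gene of mitochondrial protein import. A mark at such a pair cannot be assigned to either gene. Atp5j had H3K4me3 of 76.6 in wild-type and 107 in K27M cells.

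Other genes of the pathway carried the marks about as often. Of 40 further assembly factors 38 had H3K4me3 in both libraries, and all 20 regulators and mitochondrial DNA maintenance genes had it. H3K27ac was in both at 32 of the 40 and at 16 of the 20. The log2 ratio of H3K4me3 had a median of 0.34 for these assembly factors and 0.37 for the regulators, and that of H3K27ac was -0.02 for each. Their H3K27me3 was in wild-type cells at 7 of 40 and 3 of 20. Among the regulators Ppargc1a, a coactivator of mitochondrial biogenesis, had an H3K27me3 interval of density 6.60 in its window in wild-type cells and none in K27M cells. Its H3K4me3 was 70.1 in wild-type and 111 in K27M cells. Mterf1a, of the same list, also had H3K27me3 in wild-type cells alone, at 4.49, while its H3K4me3 was 61.8 in wild-type and 58.8 in K27M cells. Of all genes with wild-type H3K27me3, 69% had no K27M interval.

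A few of these genes stood apart. Surf1, an assembly factor of complex IV, had no H3K4me3 interval in wild-type cells and one of 6014 bp at density 120 in K27M cells, while its H3K27ac was called in wild-type cells alone, at 60.6 over 2099 bp. Whether the missing intervals reflect missing signal was not tested. Cox14, another assembly factor of complex IV, had H3K27ac in K27M cells alone, at 63.7 over 2194 bp, with H3K4me3 of 34.7 in wild-type and 40.1 in K27M cells. Ssbp1, the single-stranded DNA binding protein of mitochondria, had an H3K27me3 interval in its window, with densities of 16.4 in wild-type and 9.87 in K27M cells. This interval was 37399 bp long in wild-type cells, and whether it lies on the gene or beside it was not examined. Polg2 and Polrmt, a DNA polymerase subunit and the RNA polymerase of mitochondria, had H3K27ac in wild-type cells alone, at 47.6 and 20.4.

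Set beside other housekeeping groups, the widely expressed respiratory genes were similar. H3K4me3 was in both libraries at 92.4% of these 92 genes, at 96.2% of 78 mitochondrial ribosomal protein genes, at 92% of 75 cytosolic ribosomal protein genes and at 100% of 17 glycolytic genes. H3K27ac was in both at 85.9%, 82.1%, 89.3% and 94.1%. The median log2 ratio of H3K4me3 was 0.32, 0.30, 0.24 and 0.35, all below 0.37, and that of H3K27ac was 0.02, 0.09, -0.01 and -0.05. The median ratio of called H3K27ac length was 0.693, 0.591, 0.669 and 0.569. H3K27me3 was in wild-type cells at 15.2%, 15.4%, 9.33% and 29.4%, against 31.1% of all genes. Whether the respiratory genes differ from these groups was not tested.

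**Figure D5:**
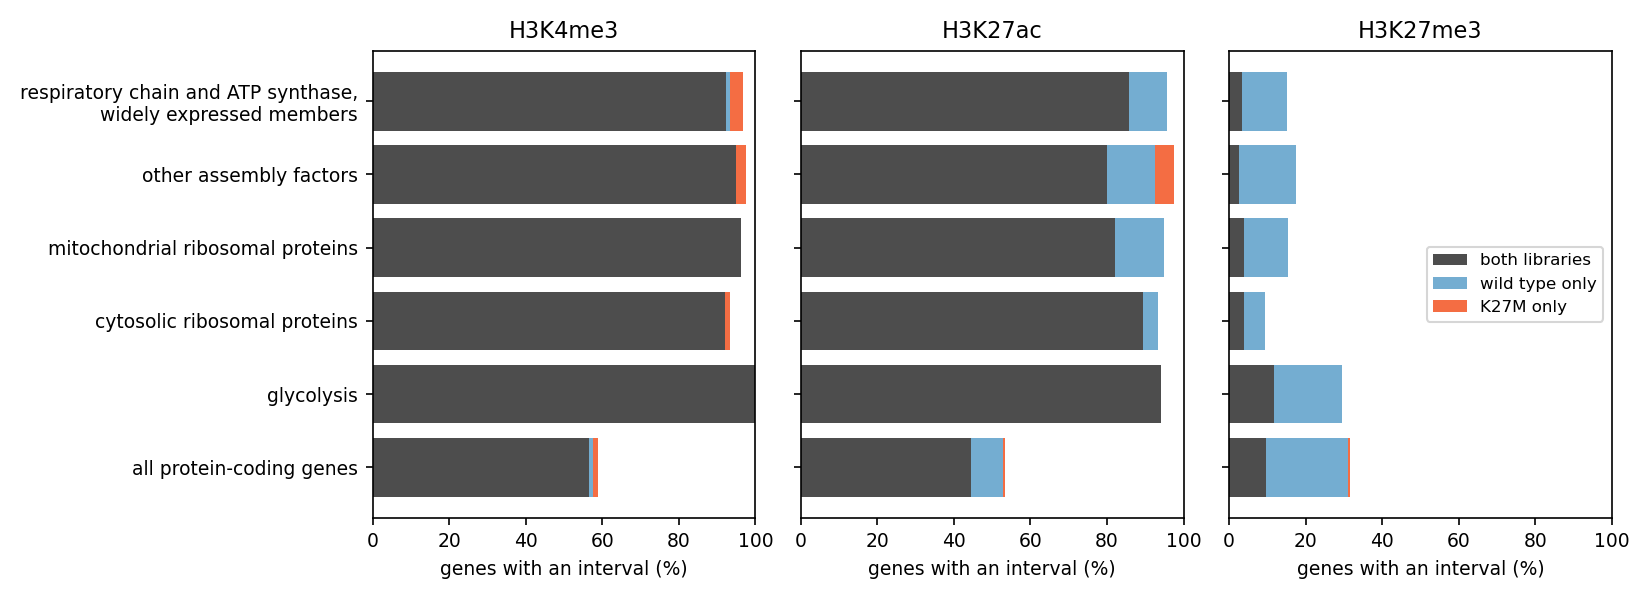
Share of genes (x axis, percent) with an interval in both libraries (dark grey), in the wild-type library only (blue) or in the K27M library only (orange) for H3K4me3, H3K27ac and H3K27me3 (left to right), for the 92 widely expressed respiratory genes, 4 comparison groups and all protein-coding genes (y axis). The respiratory genes resemble the ribosomal and glycolytic groups for H3K4me3 and H3K27ac and lie above all protein-coding genes, 56.5% and 44.4%.

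By combination of marks, 67 of the 102 genes had H3K4me3 and H3K27ac in both genotypes and no H3K27me3 in either. A further 10 had both active marks in both genotypes with H3K27me3 in the wild-type window alone, and 3 had intervals of all 3 marks in both. At these 3, Cox6b1, Ndufb8 and Atp5k, the H3K27me3 interval lay beside the gene and not on it. In 5 genes H3K27ac alone was limited to wild-type cells, and 6 genes had no interval of any mark in any library. These combinations were not counted over all protein-coding genes, so whether they are particular to the respiratory genes was not tested. Fewer marked cells and less of the mark in each cell cannot be told apart in these bulk libraries.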

How the data were processed

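Chromatin was sequenced from 6 libraries, 1 for each of 3 marks and 2 genotypes. The authors deposited lists of intervals with the mean and the highest signal, a tag density in bins of about 32 nt, which is neither a count nor a ratio. The submitters' processing notes name BWA, SICER and mm10, while no source used here gives their versions, their roles or a normalization for depth. In each list the product of mean density and bin number was whole within 0.05 for at least 98.7% of intervals.

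Computed here, with Python 3.11.15, pandas 2.3.3, numpy 2.4.6, scipy 1.17.1 and matplotlib 3.10.9, were the intervals that overlap a gene span with a flank of 1 kb by at least 1 bp. Overlapping intervals of the 2 lists of a mark were merged into regions, and the region of highest mean density gave the log2 ratio, K27M over wild type, with a pseudocount of 1 added to each density. Called means present as an interval in the deposited lists, and the threshold for a change in mean density was 1.5-fold. Gene spans, starts and promoters came from RefSeq, GRCm38.p6. The assignment was tested on simulated intervals. The depth is unknown and no test was possible with 1 library per group.

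The members and lists were chosen with earlier results of these data known. Genes were named by this rule: the 3 highest and 3 lowest ratios of H3K4me3 and H3K27ac, members with H3K27me3, members without H3K4me3 in a library, up to 10 with H3K27ac in 1 library, the 3 longest H3K4me3, a core set and the tissue-restricted isoforms. Other genes named, those of the further lists included, were picked after their values were seen. Alternatives were other flanks, pseudocounts, scalings and measures. The count at listed starts was chosen after seeing the data.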

Additional observations from a re-analysis of the deposited data

How the results depend on the processing

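The counts of respiratory genes with H3K4me3 and H3K27ac in both libraries stayed within 1.5 times under every alternative run. The 17 genes with wild-type H3K27me3 became 2 with no flank, 2 when at least 50% of the interval had to lie inside the gene window and 32 with a flank of 5 kb. The H3K27me3 density ratios were not rerun under other scales or measures. The median log2 ratio of H3K4me3, 0.32, was 0.37 by highest density, 0.36 by density times length, 0.15 with equal 5th percentiles, -0.037 with the median of all shared regions set to 0 and -0.0905 with both lists scaled to equal sums. The median of H3K27ac, 0.03, was -0.31 by highest density, -0.59 by density times length, -0.54 with equal 5th percentiles and 1.13 with equal sums. By density times length the H3K27ac ratios of Ndufb7, Cox4i1 and Cox8a turned to -0.56, -0.66 and -1.02, and by highest density that of Cox8a to -0.29; the called lengths of these genes were shorter in K27M cells. Of the other values of named genes, 350 moved and 336 did not. No further ratio of at least 1.5-fold changed sign, but 128 of these 686 values, from smaller ratios, did, among them 32 of 43 for H3K4me3 and 18 of 36 for H3K27ac with equal sums, 24 of 43 for H3K4me3 with the median of all shared regions set to 0, and for H3K27ac 15 of 36 with equal 5th percentiles, 14 of 33 by density times length and 10 of 35 by highest density. No paired analysis was possible because each group has 1 library, so no library could be left out either. The unknown depth limits every comparison between libraries.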
